A study of Mus musculus with 8 samples.

Results

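The genes described here are 10 components of bone morphogenetic protein (BMP) signalling, taken by name from a table of 55421 genes: the ligand gene Bmp4, the receptor genes Bmpr1a and Bmpr2, the signal transducers Smad1 and Smad5, the inhibitors Smad6 and Bambi, and the target genes Id1, Id2 and Id3. All 10 passed the filter on low counts that left 15137 genes for testing. They were measured with 3′-end mRNA sequencing (QuantSeq) in E14 mouse embryonic stem cells of a 129/Ola background, kept on gelatin with serum and LIF. The 4 groups hold 2 biological duplicates each. The siTfap4 cells lack the miR-290-295 cluster and received siRNAs against Tfap4 (a siPOOL at 5 nM for 36 hours); TFAP4 is a basic helix-loop-helix protein that recognises E-boxes, short DNA words of the form CANNTG. The siNeg cells are knockout cells given a negative control pool. The KO cells carry the same knockout and were left untreated, and the WT cells are untreated wild-type cells. KO and WT libraries were prepared and sequenced together, and the siTfap4 and siNeg libraries formed another set. The siTfap4 and siNeg groups both lack the cluster, no wild-type cells were transfected, and no group restores the cluster.

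BMP ligands bind a complex of type I and type II receptors on the cell surface, and the type I receptor phosphorylates SMAD1 and SMAD5, which enter the nucleus with SMAD4 and act on target genes. The Id genes are long-known direct targets, and their proteins bind E-box factors of the basic helix-loop-helix class and keep them off DNA. SMAD6 and the pseudoreceptor BAMBI damp the pathway and are themselves induced by it. In mouse embryonic stem cells grown in serum, BMP signalling acting through Id proteins is known to hold back neural differentiation beside LIF.

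Total counts were between 8326675 and 12726123 a library, and the 10 genes together held between 3938 and 12917 of them. Levels are CPM, counts scaled to a common library size with TMM factors. P-values come from edgeR's quasi-likelihood test with Benjamini-Hochberg adjustment over the 15137 genes, and a gene is called at an adjusted p under 0.05. They measure the spread between duplicates, pooled over the 4 groups. By 2-fold differences the duplicates of siTfap4 stood furthest apart. Of 8636 genes with a mean of at least 10 CPM, 540 (6.25%) were at least 2-fold higher in siTfap4 2 than in siTfap4 1. A further 79 (0.915%) were at least 2-fold lower. For siNeg 2 against siNeg 1 the numbers were 74 higher and 253 lower. Relative to counting error the spread was widest in siNeg (chi-square per degree of freedom 39.5). It was 31.5 in siTfap4, 20.1 in WT and 11.9 in KO. Pluripotency markers summed to 1944 and 1964 CPM in siTfap4, 2672 and 2544 CPM in siNeg, 2791 and 2678 CPM in KO and 2581 and 2479 CPM in WT, with Sox2 the largest part of the sum in each library (923 and 909 CPM in siTfap4). In siTfap4 against siNeg cells 2 of these 7 markers were lower and 1 was higher. Of all 15137 genes, 11.1% were called lower and 4.36% higher. In bulk samples, fewer cells of a type and less RNA per cell cannot be told apart.

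The sequences of the deleted microRNAs are shown to set the BMP genes beside the words these microRNAs can pair with. In the RefSeq entries (GRCm38.p6, chromosome 7, plus strand), miR-291a-3p, miR-294-3p and miR-295-3p share the seed AAGUGCU, and miR-290a-3p and miR-291b-3p differ from it in the last seed base. Capitals mark the seed, bases 2 to 8.
miR-291a-3p: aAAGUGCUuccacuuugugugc
miR-294-3p: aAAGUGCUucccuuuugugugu
miR-295-3p: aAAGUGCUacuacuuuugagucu
miR-290a-3p: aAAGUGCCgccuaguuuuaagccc
miR-291b-3p: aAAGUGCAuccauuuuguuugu

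Of the 10 genes, 2 held a word complementary to this seed in the longest annotated 3′ UTR. Smad5 held AGCACTT at 2 places, one of them extended to AGCACTTA, and Bambi held it once. Bmp4, Bmpr1a, Bmpr2, Smad1, Smad6, Id1, Id2 and Id3 held neither AGCACTT nor GCACTTA. Among 12786 tested genes with an annotated 3′ UTR, 21.6% held at least 1 of these words. The shorter word GCACTT, without the last seed base, occurred 3 times in Bmpr2, 3 times in Smad5 and 1 time each in Smad6 and Bambi. It was in 34.7% of the tested genes and in none of the remaining BMP genes. The words for the full seeds of miR-290a-3p and miR-291b-3p were not searched. The Tfap4 3′ UTR held AGCACTTA, given below with the longer words of Smad5, with the matching word in capitals. A match is a description of the letters and not a measured binding site.
Smad5 (chromosome 13), position 3280 of the 3′ UTR: ttccctggcAGCACTTgggtccctg
Smad5 (chromosome 13), position 4008 of the 3′ UTR: cagtgctcgAGCACTTAgcaggcatc
Tfap4 (chromosome 16), position 455 of the 3′ UTR: tctcttttaAGCACTTAcatgggttg

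The promoter windows of Smad6, Id3 and Id2 are shown because the first 2 genes were lower in siTfap4 than in siNeg cells and Id2 was not called in that comparison. Each is a window of 300 bases around the annotated start (RefSeq, GRCm38.p6), and capitals mark E-boxes (CANNTG) and the SMAD-type word GGCGCC. RefSeq windows were matched for 8 of the 10 genes, all but Bambi and Id1.
Smad6 (chr9:64022010-64022309, minus strand): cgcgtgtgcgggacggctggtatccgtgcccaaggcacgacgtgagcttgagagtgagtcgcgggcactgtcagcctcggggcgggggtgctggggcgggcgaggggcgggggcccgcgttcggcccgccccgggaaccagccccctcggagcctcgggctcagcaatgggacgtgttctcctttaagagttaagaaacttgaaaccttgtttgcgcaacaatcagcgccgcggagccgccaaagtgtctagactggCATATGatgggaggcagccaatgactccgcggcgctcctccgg
Id3 (chr4:136143572-136143871, plus strand): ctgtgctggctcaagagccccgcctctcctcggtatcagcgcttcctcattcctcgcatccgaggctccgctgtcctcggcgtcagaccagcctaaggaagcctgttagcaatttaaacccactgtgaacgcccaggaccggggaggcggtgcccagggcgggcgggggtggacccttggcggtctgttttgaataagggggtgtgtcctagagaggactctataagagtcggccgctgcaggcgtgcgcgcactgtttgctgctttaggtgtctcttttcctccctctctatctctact
Id2 (chr12:25096043-25096342, minus strand): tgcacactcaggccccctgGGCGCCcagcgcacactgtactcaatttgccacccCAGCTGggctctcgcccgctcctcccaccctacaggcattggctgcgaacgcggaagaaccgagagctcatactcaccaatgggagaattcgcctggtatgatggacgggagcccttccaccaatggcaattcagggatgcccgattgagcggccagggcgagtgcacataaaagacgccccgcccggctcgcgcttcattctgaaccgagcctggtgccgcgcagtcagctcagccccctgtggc

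The Smad6 window held 1 E-box, CATATG. The Id3 window held no E-box and no GGCGCC, and the Id2 window held 1 of each, its E-box being CAGCTG. Of the windows not shown, that of Bmp4 held 3 E-boxes and those of Bmpr1a, Bmpr2 and Smad1 held 0. Smad5, with several windows, held 1 or 0. None of these genes was called in siTfap4 against siNeg. Among 32851 mouse promoter windows of the same length, 72.3% held CANNTG, 16.3% held CAGCTG and 11.9% held GGCGCC, read on both strands. The short word GTCT, the core of a SMAD-binding element, was in 88.0% of all windows and in each of these 3.

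Tfap4 itself, the gene targeted by the pool, stood at 12.4 and 15.8 CPM in siTfap4 cells, against 34.4 and 37.4 CPM in siNeg cells. It stood at 49.0 and 42.1 CPM in KO cells, against 19.7 and 16.4 CPM in WT cells. Its log2 fold change was -1.35 (SE 0.27, adjusted p = 0.00365) for siTfap4 against siNeg and 1.33 (SE 0.26, adjusted p = 0.00363) for KO against WT. The first call was lost without siTfap4 replicate 1 (-1.18, adjusted p = 0.0602), and the other without KO replicate 1 (1.22, adjusted p = 0.0547).

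**Figure D1:**
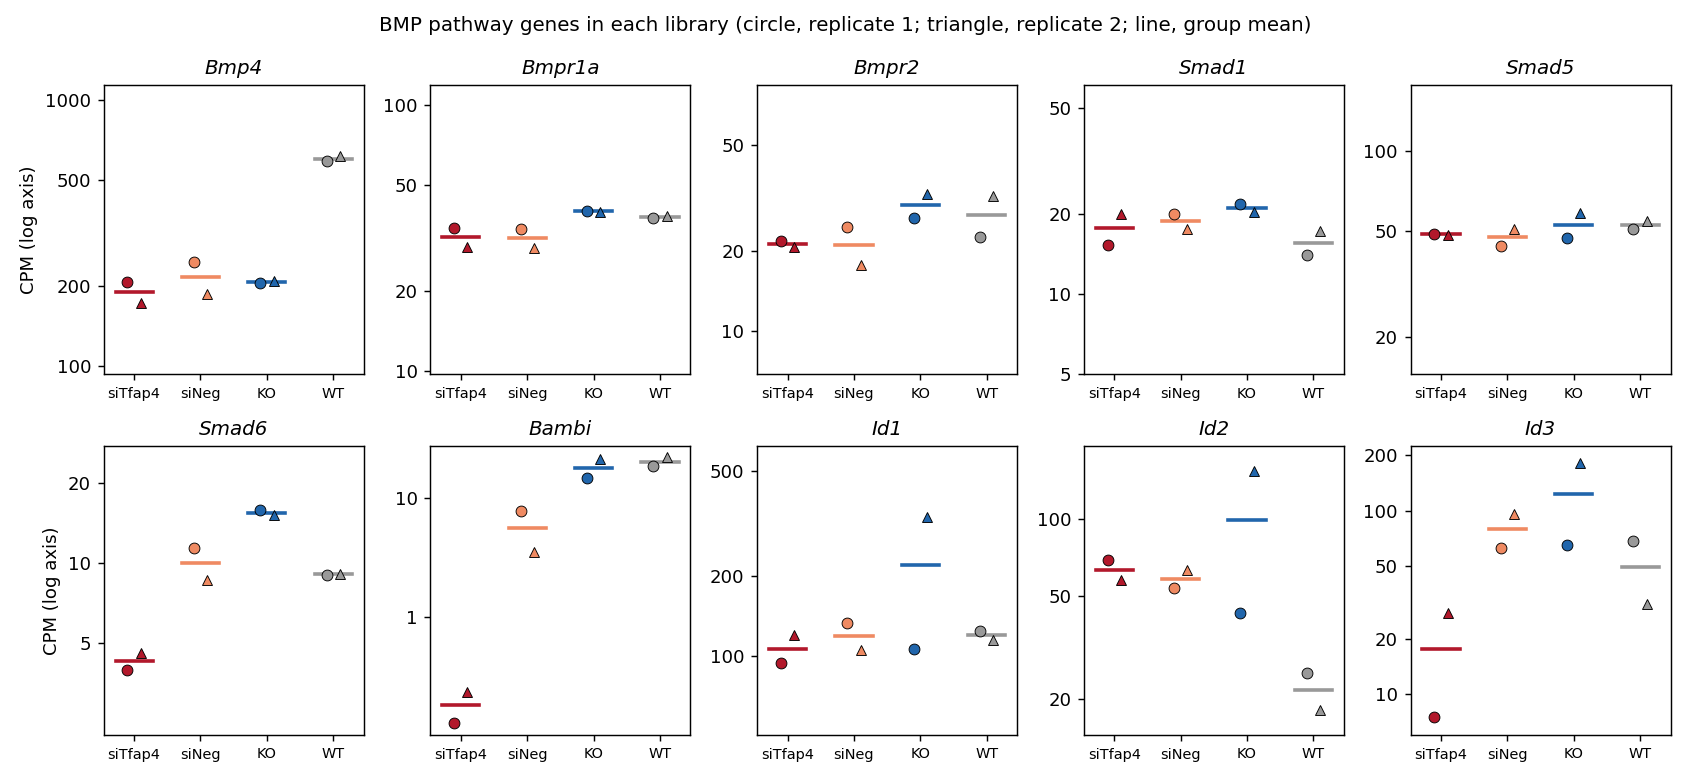
CPM of the 10 genes in each library on log axes, with siTfap4, siNeg, KO and WT from left to right. Circles are replicate 1, triangles replicate 2 and lines the mean of the 2 libraries. Bmp4 stands at 589.6 and 613.5 CPM in WT and at most at 246 CPM in the other 6 libraries, and Bambi is at most at 0.236 CPM in siTfap4 and at 3.48 CPM or more elsewhere.

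The ligand gene Bmp4 was lower in every library of knockout cells than in WT cells. Bmp4 (ENSMUSG00000021835, chromosome 14, 46383520 to 46390669, minus strand, GRCm38) stood at 204 and 209 CPM in KO cells, against 589.6 and 613.5 CPM in WT cells. The groups did not overlap, and the log2 fold change was -1.54 (SE 0.23, adjusted p = 0.000462), a level 2.91-fold lower in KO cells. Its call held without any 1 of the 4 libraries, with adjusted p between 0.00373 and 0.0156. In the siPOOL set, Bmp4 stood at 206 and 173 CPM in siTfap4 cells, against 246 and 186 CPM in siNeg cells. These duplicates overlapped, and the log2 fold change of -0.19 (95% interval -0.67 to 0.30, adjusted p = 0.616) was not called. Corrected for the GC content of transcript ends it was 0.30 (adjusted p = 0.368). The siNeg cells did not differ detectably from the untreated KO cells (log2 fold change 0.06, 95% interval -0.42 to 0.54). Of the last 200 bases of Bmp4, 4.1% of words of 31 bases occur in other genes, and the opposite-strand genes that overlap it held at most 56 counts in a library.

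The genes whose pattern over the 8 libraries was nearest to that of Bmp4 were Polr3g, Btg2 and Retsat, with root mean square differences of centred log2 CPM of 0.18, 0.19 and 0.22 among 8635 genes. The nearest of the other 9 BMP genes was Bmpr1a, at 0.63 and rank 1608.

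The receptor genes Bmpr1a, which encodes a type I receptor, and Bmpr2, which encodes a type II receptor, were not called in any comparison. Bmpr1a stood at 34.5 and 29.4 CPM in siTfap4, 34.4 and 29.0 CPM in siNeg, 40.0 and 39.8 CPM in KO and 37.6 and 38.5 CPM in WT cells. Its log2 fold change was 0.07 for KO against WT (95% interval -0.44 to 0.58) and 0.01 for siTfap4 against siNeg (-0.51 to 0.53). Both untreated groups were above both transfected groups in every library. Bmpr2 stood at 21.8 and 20.8 CPM in siTfap4, 24.6 and 17.6 CPM in siNeg, 26.7 and 32.8 CPM in KO and 22.6 and 32.1 CPM in WT cells. Its log2 fold change was 0.12 for KO against WT (-0.46 to 0.71) and 0.01 for siTfap4 against siNeg (-0.60 to 0.62).

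The receptor-regulated SMAD genes were likewise not called. Smad1 stood at 15.3 and 19.9 CPM in siTfap4, 20.0 and 17.5 CPM in siNeg, 21.7 and 20.2 CPM in KO and 14.0 and 17.2 CPM in WT cells. The KO libraries were both above the WT libraries, with a log2 fold change of 0.43 (95% interval -0.15 to 1.01, adjusted p = 0.376), and the siPOOL groups overlapped (-0.09, -0.68 to 0.50). Smad5, which holds the seed words shown above, stood at 49.1 and 48.5 CPM in siTfap4, 44.0 and 51.0 CPM in siNeg, 47.3 and 58.6 CPM in KO and 51.1 and 54.7 CPM in WT cells. Its log2 fold change for KO against WT was 0.00 (-0.50 to 0.50), and for siTfap4 against siNeg it was 0.04 (-0.47 to 0.54). Its duplicates overlapped between the groups in both sets.

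The inhibitory SMAD gene Smad6 was lower in siTfap4 than in siNeg cells. It stood at 3.95 and 4.60 CPM in siTfap4, against 11.4 and 8.61 CPM in siNeg, with no overlap (log2 fold change -1.23, SE 0.35, adjusted p = 0.0265). The counts behind these levels were 31 and 39 in siTfap4 and 133 and 89 in siNeg. In the untreated set Smad6 stood at 15.8 and 15.2 CPM in KO, against 9.02 and 9.11 CPM in WT cells. The duplicates of each group were close and did not overlap between groups, but the log2 fold change of 0.77 (SE 0.30, adjusted p = 0.119) was not called. The siTfap4 call was lost without siTfap4 replicate 1 (-1.12, adjusted p = 0.197), siTfap4 replicate 2 (-1.34, adjusted p = 0.0535) or siNeg replicate 1 (-1.01, adjusted p = 0.166), and with the base composition correction (-0.74, adjusted p = 0.145).

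Bambi, which encodes a receptor-like protein without a kinase domain, was nearly undetected in siTfap4 cells. The Bambi counts were 1 and 2 in siTfap4, against 91 and 36 in siNeg, which is 0.127 and 0.236 CPM against 7.80 and 3.48 CPM. The summed counts of 3 and 127 give a level 31.4-fold lower in siTfap4, with a counting interval (exact, 95%) of 10.5 to 154 that covers counting error only. The fitted log2 fold change was -4.87 (SE 0.76, adjusted p = 0.000419) and lay between -5.37 and -4.16 when each library was left out, called each time. In the untreated cells Bambi stood at 14.8 and 21.1 CPM in KO, against 18.5 and 22.0 CPM in WT, an overlap with a log2 fold change of -0.17 (95% interval -0.85 to 0.50, adjusted p = 0.806). The siNeg libraries were also both below the KO libraries (log2 fold change -1.65, SE 0.35, adjusted p = 0.0661), across sets in which transfection, control pool and preparation cannot be told apart. DESeq2 called that difference (adjusted p = 0.0143), as did the fit without a filter on low counts (adjusted p = 0.0124) and the fit without siNeg replicate 1 (-2.36, adjusted p = 0.0325). The nearest patterns to that of Bambi were Cfap20, Zdhhc8 and Snhg8, with root mean square differences of 0.41, 0.41 and 0.48.

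The Id genes differed from one another. Id2 was higher in both KO libraries than in both WT libraries, at 43.2 and 154 CPM against 25.1 and 18.1 CPM (log2 fold change 2.18, SE 0.46, adjusted p = 0.00970). Without KO replicate 2 its log2 fold change was 1.00 (adjusted p = 0.117), and without KO replicate 1 it was 2.83 (adjusted p = 4.09e-05). The call was also lost without WT replicate 1 (2.45, adjusted p = 0.0582) or WT replicate 2 (1.97, adjusted p = 0.107), when the 4 libraries were fitted alone (2.19, adjusted p = 0.112), and without a filter on low counts (2.20, adjusted p = 0.124). In the siPOOL set Id2 stood at 69.1 and 57.9 CPM in siTfap4, against 53.8 and 63.3 CPM in siNeg, and the duplicates overlapped (0.12, 95% interval -0.83 to 1.06).

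Id1 stood at 107 and 334 CPM in KO cells, against 124 and 116 CPM in WT cells. The groups overlapped, one KO library lying below both WT libraries and the other above them, and the log2 fold change of 0.88 (SE 0.40, adjusted p = 0.204) was not called. It was -0.17 without KO replicate 2 (adjusted p = 0.886) and 1.48 without KO replicate 1 (adjusted p = 0.00952). In the siPOOL set Id1 stood at 94.0 and 119.8 CPM in siTfap4, against 133.5 and 106 CPM in siNeg (-0.16, 95% interval -1.02 to 0.70).

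Id3 was lower in siTfap4 than in siNeg cells, at 7.52 and 27.8 CPM against 62.7 and 95.2 CPM. The groups did not overlap, but the siTfap4 duplicates themselves differed by 3.70-fold, and the log2 fold change of -2.15 (SE 0.63) had an adjusted p of 0.0442. That call was lost without siTfap4 replicate 1 (-1.50, adjusted p = 0.285), siNeg replicate 1 (-2.42, adjusted p = 0.0620) or siNeg replicate 2 (-1.82, adjusted p = 0.0957), while without siTfap4 replicate 2 it was -3.39 (adjusted p = 0.0193). It was also lost in DESeq2 (adjusted p = 0.0617), in edgeR's legacy quasi-likelihood fit (adjusted p = 0.0579), without a filter on low counts (adjusted p = 0.325) and with the base composition correction (-1.76, adjusted p = 0.0610). In the untreated set Id3 stood at 65.1 and 180.5 CPM in KO, against 68.1 and 31.02 CPM in WT. These duplicates overlapped, and the log2 fold change was 1.30 (SE 0.59, adjusted p = 0.213).

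The KO duplicates differed in all 3 Id genes in the same direction. Id1, Id2 and Id3 were 3.13-, 3.56- and 2.77-fold higher in KO 2 than in KO 1, against 1.02-fold for Bmp4 and 0.96-fold for Smad6. The ratio of Bambi was 1.43, with 377 genes above it, and those of Bmpr2 and Smad5 were 1.23 and 1.24. Of 8636 genes with a mean of at least 10 CPM, 6 had a higher ratio than Id1, 3 a higher ratio than Id2 and 9 a higher ratio than Id3, and 14 genes (0.162%) reached 2.5-fold. In the WT duplicates the ratios of WT 2 to WT 1 were 0.93, 0.72 and 0.46 for Id1, Id2 and Id3. The titles of KO 2 and WT 1 share a suffix, CC, whose meaning the labels do not give.

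**Figure D2:**
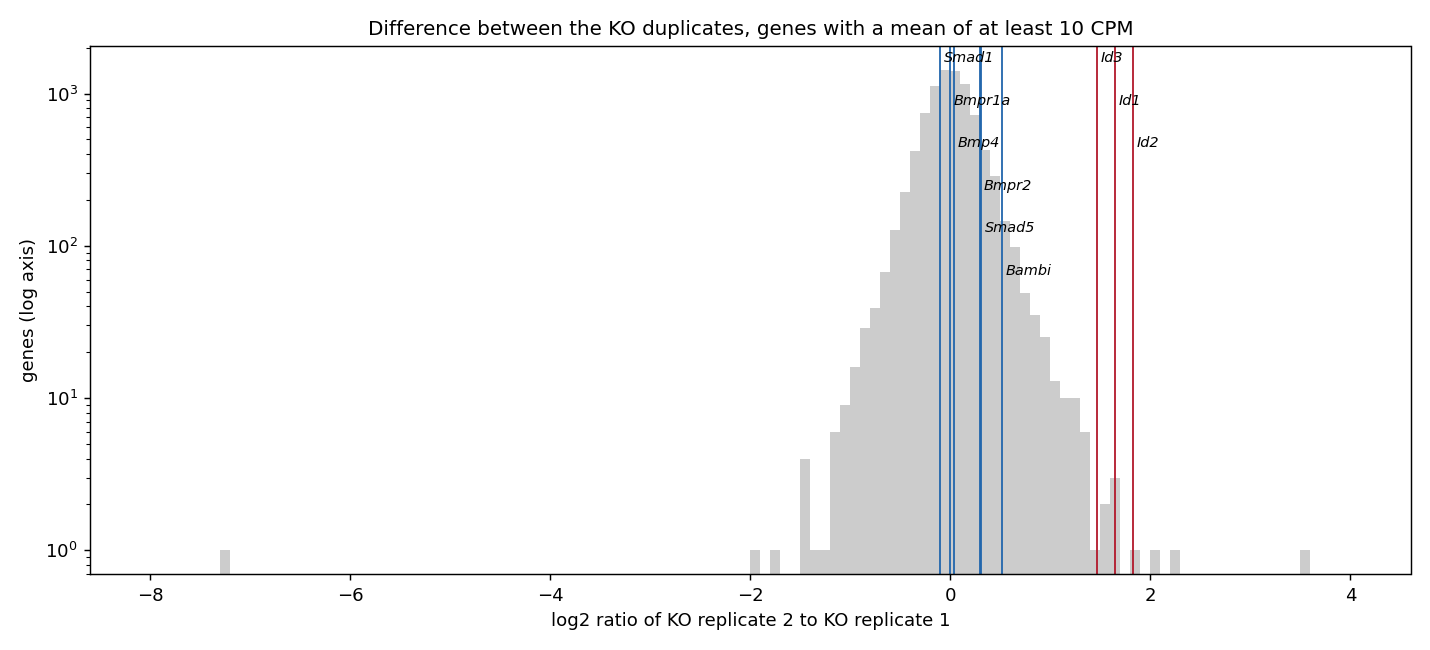
Histogram of the log2 ratio of KO replicate 2 to KO replicate 1 over 8636 genes with a mean of at least 10 CPM, with the number of genes on a log axis and lines for the 9 BMP genes above that level. Blue lines are Bmp4, the receptors, the SMADs and Bambi, of which Smad1 is the leftmost and Bambi the rightmost, and red lines are Id1, Id2 and Id3, which lie at 1.65, 1.83 and 1.47.

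The genes nearest in pattern to Id1 were Cdk6, Nab2 and Zbtb41 (root mean square differences 0.27, 0.33 and 0.33), and those nearest to Id2 were 2310043M15Rik, Cachd1 and Stambp (0.30, 0.36 and 0.39). These are the smallest differences by selection, so any other gene lies further away. Id1 and Id2 differed by 0.70, Id1 and Id3 by 1.02, and Id2 and Id3 by 1.35. Among 8635 genes, Id2 stood at rank 5121 and Id3 at rank 7986 from Id1. Counted from Id2, Id1 stood at rank 648 and Id3 at rank 7858. Counted from Id3, Id1 stood at rank 1422 and Id2 at rank 4571.

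Counted over the 10 genes, KO against WT cells called 2, with Id2 higher and Bmp4 lower, where 9.95% of all 15137 genes were called (5.99% higher and 3.96% lower). The groups did not overlap for 5 of the 10, 4 higher and 1 lower in KO, where 57.5% of all genes did not overlap (28.9% higher and 28.6% lower). The median log2 fold change of the 10 was 0.28, against -0.01 for all tested genes. For siTfap4 against siNeg cells, 3 of the 10 were called, all lower, where 15.4% of all genes were called (4.36% higher and 11.1% lower). The groups did not overlap for those same 3 genes, where 58.3% of all genes did not overlap (28.9% higher and 29.3% lower), and the median log2 fold change was -0.13, against 0.01 for all genes. With the base composition correction 1 of the 10, Bambi, was called, and 1874 of all genes (569 higher and 1305 lower), where 2334 were called without it. For siNeg against KO cells, 0 of the 10 were called by edgeR, where 1 of 15137 genes (0.00661%) was called; at an unadjusted p under 0.05 there were 3 of the 10 and 1737 of all genes, and DESeq2 called 1 of the 10. The siNeg libraries were both below the KO libraries for 5 of the 10 genes and above them for 0, where 44.9% of all genes did not overlap (20.5% higher and 24.4% lower).

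**Figure D3:**
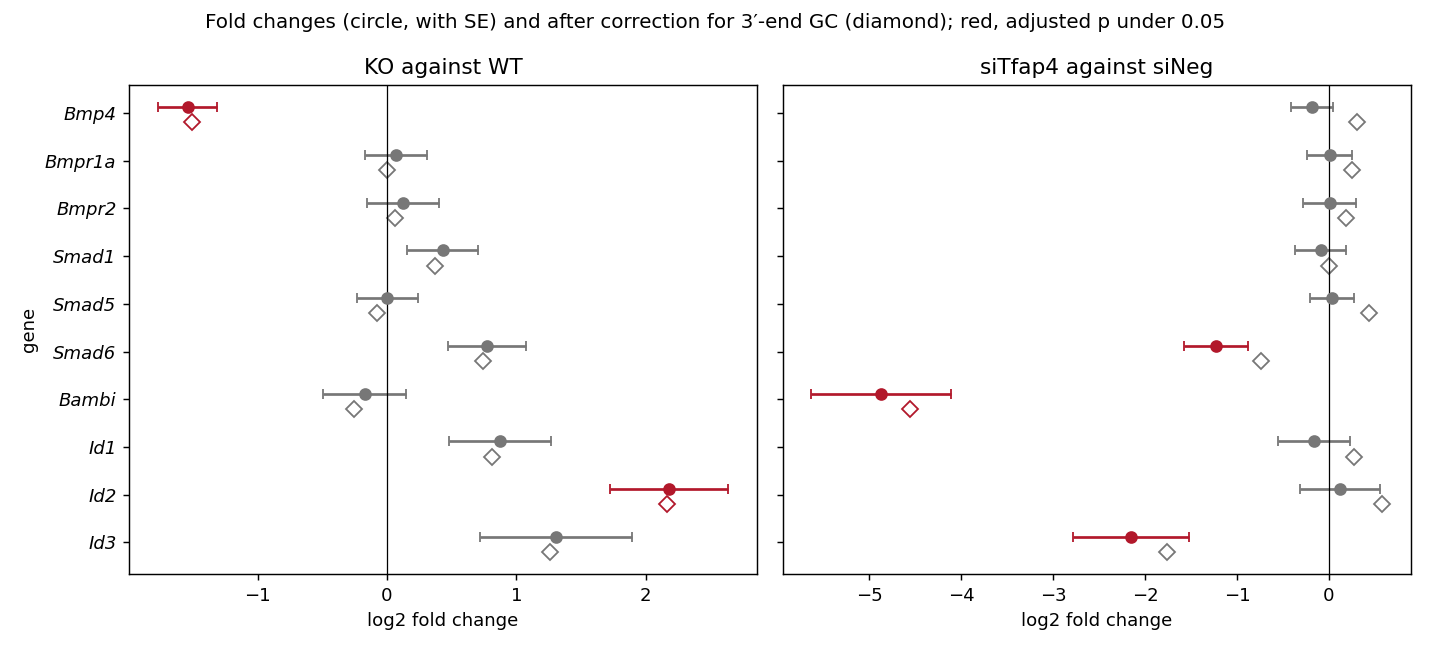
Log2 fold changes of the 10 genes for KO against WT (left) and siTfap4 against siNeg (right). Circles show the fit with its standard error, diamonds the fit corrected for 3′-end GC content, and red an adjusted p under 0.05. In the right panel Smad6, Bambi and Id3 are called without the correction and Bambi alone with it.

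The 3′ ends of these genes are poor in GC, between 19.0% in Bmp4 and 36.0% in Smad1 over the last 100 bases. At those GC percentages the smoothed difference over all genes between siTfap4 and siNeg lay between -0.47 and -0.09 on the log2 scale, whereas between KO and WT it lay between -0.03 and 0.08. The part of this trend in the siTfap4 results was not tested beyond the correction given above.

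Whether a gene moved differently in the 2 comparisons was tested directly, as the siTfap4 change minus the KO change, which share no library. Of the 10 genes 5 were called, 1 with a positive and 4 with a negative difference, where 15.9% of all genes were (4.60% positive and 11.3% negative). Bmp4 had a difference of 1.36 (SE 0.32, adjusted p = 0.0105), being lower in KO and not called in siTfap4. Smad6 had a difference of -2.00 (SE 0.46, adjusted p = 0.00867), Bambi -4.70 (SE 0.87, adjusted p = 0.00182), Id2 -2.07 (SE 0.63, adjusted p = 0.0426) and Id3 -3.45 (SE 0.86, adjusted p = 0.0231). Smad6 and Bambi kept this call without any 1 of the 8 libraries. Bmp4 lost it without KO replicate 1 (1.34, adjusted p = 0.0632) or KO replicate 2 (1.37, adjusted p = 0.0507). Id3 lost it without KO replicate 2 (-2.54, adjusted p = 0.0613), WT replicate 2 (-3.00, adjusted p = 0.109) or siTfap4 replicate 1 (-2.81, adjusted p = 0.0750), and without a filter on low counts (adjusted p = 0.239). Id2 was called without KO replicate 1 (-2.71, adjusted p = 0.000829) and lost its call without each of the other 7 libraries (adjusted p from 0.0751 to 0.232, with -0.88 without KO replicate 2). Id1, with a difference of -1.04 (adjusted p = 0.231), was called without KO replicate 1 (-1.64, adjusted p = 0.0205). The differences of Bmpr1a, Bmpr2, Smad1 and Smad5 lay between -0.52 and 0.04, with adjusted p of at least 0.388.

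Of 64 other genes of the pathway, 44 passed the filter, and in KO against WT cells 6 of these were higher and 4 lower, where 9.95% of all tested genes were called (5.99% higher and 3.96% lower). Among the ligands, Gdf3, which encodes a ligand that can also block BMPs, was higher, at 101 and 129 CPM in KO against 55.4 and 32.2 CPM in WT (1.39, SE 0.28, adjusted p = 0.00503). Of the last 200 bases of Gdf3, 40.6% of words of 31 bases occur in other genes. Bmp7 and Bmp6 were lower, at 1.07 and 1.65 CPM in KO against 5.28 and 7.46 CPM in WT for Bmp7 (-2.22, SE 0.44) and at 0.535 and 0.165 CPM in KO against 1.38 and 2.33 CPM in WT for Bmp6 (-2.32, SE 0.70, adjusted p = 0.0496). Bmper, which encodes an extracellular BMP binder, had 0 counts in both KO libraries, against 31 summed over the WT libraries, at least 11.5-fold lower against a floor of 3 counts over the group. Chrd, which encodes the BMP antagonist chordin, and Fstl1, of the follistatin-like family, were higher (1.37, SE 0.40, and 1.16, SE 0.25). The SMAD repressor gene Skil (1.16, SE 0.25), the BMP-responsive transcription factor gene Gata2 (2.32, SE 0.52) and Tcf12, which encodes an E-protein that Id proteins bind (0.94, SE 0.23), were higher as well. Tcf15, another basic helix-loop-helix gene, was lower, at 53.8 and 75.5 CPM in KO against 187 and 187 CPM in WT (-1.53, SE 0.24, adjusted p = 0.000723). The counts behind Gata2 were 67 and 46 in KO, against 11 and 9 in WT, and those behind Chrd were 70 and 71, against 28 and 21. Tcf15 and Bmper kept their calls without any 1 library. Chrd, Tcf12 and Bmp6 lost theirs without any 1 of the 4 (adjusted p 0.132 to 0.191, 0.0613 to 0.148 and 0.0697 to 0.314), Gata2 without KO replicate 1 (0.0739), WT replicate 1 (0.0590) or WT replicate 2 (0.0561), Gdf3 without KO replicate 2 (0.0617) or WT replicate 2 (0.0764), Fstl1 without KO replicate 2 (0.156) or WT replicate 2 (0.0802), Skil without KO replicate 1 (0.132) or WT replicate 2 (0.0995), and Bmp7 without KO replicate 1 (0.0727). Chrd was also not called in DESeq2 (0.0707), limma-voom (0.0523) or the legacy fit (0.0587), and Bmp6 was not called under any of these (0.266, 0.0563 and 0.106), with library totals (0.0556), the filter of 1 CPM (0.0514), the 4 libraries alone (0.0569) or the GC correction (0.0534).

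For siTfap4 against siNeg cells, 1 of the same 44 was higher and 5 were lower, where 15.4% of all tested genes were called (4.36% higher and 11.1% lower). A count of 6 of 44 is near that background, so the genes below are given as single values. The BMP type I receptor gene Acvr1 was lower, at 0.127 and 1.42 CPM in siTfap4 against 9.68 and 3.68 CPM in siNeg (-3.07, SE 0.66, adjusted p = 0.00562). Chrd and Twsg1, which encodes a protein that acts with chordin, were lower too (-2.31, SE 0.50, and -1.87, SE 0.32), Twsg1 at 5.35 and 5.90 CPM in siTfap4 against 24.0 and 17.1 CPM in siNeg. The other falls were Gata2 (-2.60, SE 0.68) and Tob2, of a family that restrains SMAD signalling (-1.05, SE 0.31), and the rise was Stub1, which encodes a ubiquitin ligase of SMADs (0.84, SE 0.27). Some of these changes rest on few counts in siTfap4. Gata2 had 5 and 3 there, against 46 and 21 in siNeg, and Chrd had 7 and 10, against 56 and 58. Twsg1 kept its call without any 1 library. Acvr1 lost it without siTfap4 replicate 1 (-2.25, adjusted p = 0.126) or siNeg replicate 1 (-2.20, adjusted p = 0.110) and reached -5.61 in another leave-out. Chrd lost it without siTfap4 replicate 1 (0.0938), Gata2 without siTfap4 replicate 1 (0.125), siTfap4 replicate 2 (0.0952) or siNeg replicate 1 (0.166), Tob2 without siTfap4 replicate 1 (0.224) or siNeg replicate 1 (0.252), and Stub1 without siTfap4 replicate 1 (0.346) or siNeg replicate 1 (0.297). With the base composition correction Tob2 (adjusted p = 0.190) and Stub1 (adjusted p = 0.174) were not called, and Stub1 was not called with library totals (0.0595) or the 4 libraries alone (0.0851).

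Over the 44 genes the median log2 fold change was 0.03 for KO against WT, against -0.01 for all tested genes. For siTfap4 against siNeg it was -0.10 over the 43 with a count in either group, with genes at 0 counts in siTfap4 set to their bound, against 0.01 for all genes. The most abundant of the list by CPM of 3′-end reads were Ppm1a, a phosphatase gene (0.19 in KO against WT and 0.13 in siTfap4 against siNeg), Tcf4, an E-protein gene (0.38 and 0.09), Stub1 (0.01 and 0.84) and Dusp9, a BMP-responsive phosphatase gene (0.43 and 0.57). Of these 8 differences, that of Stub1 in siTfap4 was called.

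**Figure D4:**
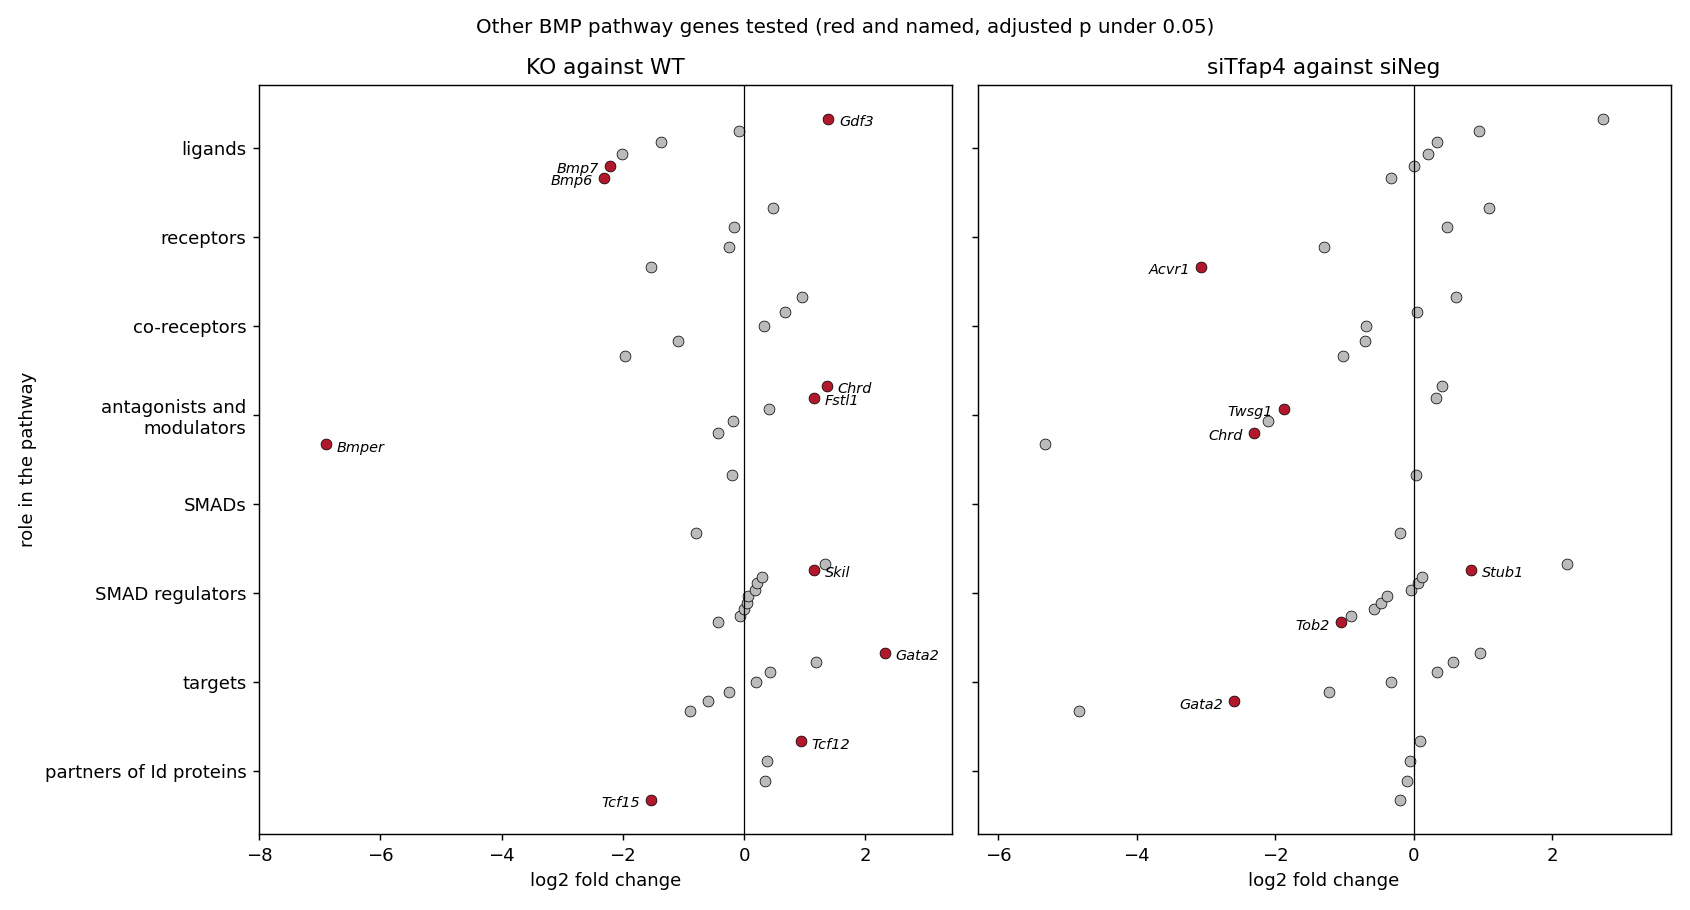
Log2 fold changes of 44 other BMP pathway genes by role for KO against WT (left) and siTfap4 against siNeg (right), with called genes in red and named. The values of genes with 0 counts in one group, such as Bmper in KO, depend on the prior count of the fit and are no measure of size. In siTfap4, Twsg1, Chrd, Acvr1 and Gata2 lie at -1.87 or lower.

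Some cell type markers also differed between the groups. Of 12 primitive endoderm markers tested, 8 were lower and 0 higher in KO than in WT cells. Of all tested genes, 3.96% were called lower and 5.99% higher in that comparison. The summed levels of the endoderm markers were 391 and 529 CPM in KO, against 617 and 810.5 CPM in WT. The largest part of each sum was Sparc, at 297 and 454 CPM in KO, against 298 and 512 CPM in WT. Sparc was not called (log2 fold change -0.11, adjusted p = 0.873), so the sums are a poor measure of the called markers. Both of the 2 fibroblast markers tested, Thy1 and Col1a1, were lower in KO. The fibroblast list summed to 10.02 and 20.0 CPM in KO, against 28.5 and 49.9 CPM in WT. Most of each sum was Thy1, at 9.56 and 19.7 CPM in KO, against 26.5 and 48.3 CPM in WT. Col1a1 was at 0.382 and 0.330 CPM in KO, against 1.71 and 1.65 CPM in WT. Postn and Col3a1 were at 0 in all 8 libraries. Of 4 neural markers 1 was higher, Pax6, and of 7 pluripotency markers 1 was lower, Utf1, at 281 and 338 CPM in KO, against 593 and 575 CPM in WT (adjusted p = 0.0132). In siTfap4 cells none of the endoderm, fibroblast, mesoderm, trophectoderm or neural markers tested was called. Of 7 pluripotency markers 1 was higher, Pou5f1 (1.02), and 2 were lower, where 4.36% of all tested genes were called higher and 11.1% lower. Dppa5a was at 3.82 and 9.32 CPM in siTfap4, against 387 and 493 CPM in siNeg (log2 fold change -6.05, adjusted p = 1.4e-07). Of the last 200 bases of Dppa5a, 39.4% of words of 31 bases occur in other genes. Nanog was at 79.8 and 179 CPM in siTfap4, against 412 and 316 CPM in siNeg. The part of these differences in the values of the BMP genes was not tested.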

How the data were processed

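Gene counts of 8 libraries were used as deposited: whole-number counts per gene from QuantSeq 3′ mRNA libraries which, per the submitters' processing notes, were trimmed with Trim Galore and referred to GRCm38. Neither the trimmer's version nor the aligner, counter, strand setting or annotation is stated in the sources used here. Without a known strand setting, reads of a gene and its antisense partner cannot be told apart. Totals were 8326675 to 12726123 counts a library. Symbols came from the GENCODE annotation (99.5% of 55421 identifiers).

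Genes were filtered with filterByExpr (15137 left) and scaled with TMM factors. A robust quasi-likelihood model, with the legacy option off, estimated 4 group means from all 8 libraries in edgeR 4.0.16 and R 4.3.3, with 4 residual degrees of freedom and Benjamini-Hochberg adjustment. CPM were computed from the counts. Alternatives were DESeq2 1.42.0, limma-voom (limma 3.58.1), library totals alone, 2 other filters, the 4 libraries of a comparison alone, a replicate block, and each library left out. The legacy fit and a GC correction, alone and with the block, were added after seeing the data. The GC correction smooths each library's deviations against GC over the final 100 transcript bases by lowess (span 0.3) and enters the curve as an offset.

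The members and lists were chosen with earlier results of these data known. Named are all 10 members, Tfap4, each other pathway gene called in KO against WT or siTfap4 against siNeg with the 4 most abundant, and the 3 genes nearest in pattern to Bmp4, each Id gene and Bambi (among genes with a mean of at least 10 CPM, log2 CPM with a prior count of 2). The genes nearest to Id3 are not reported here. In data simulated for the KO and siTfap4 designs, edgeR called 99% and 99% of genes given a 4-fold change. It called 42% and 33% of those given a 2-fold change, with 9 false calls among 14624 genes and 6 among 14663. The changed genes all had a mean above 10 CPM, and counts were drawn with the average spread at each expression level. The rates therefore do not cover genes below that level, Smad6 among them. Nor do they cover genes with a spread as wide as that of the Id genes in KO. Each fold was given to 100 genes, whereas 1506 and 2334 genes were called in the real comparisons. The rates are therefore not those of the real data. Protein sequences were not used here.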

Additional observations from a re-analysis of the deposited data

How the results depend on the processing

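Counts of called genes moved by over 1.5 times under some alternatives. With DESeq2, siNeg against KO called 138 genes (63 higher, 75 lower) and 1 of the 10 BMP genes; with no filter on low counts it called 120 (55 higher, 65 lower) and 1 of the 10, with the 4 libraries alone 2 genes, and with the GC correction 8. The BMP genes called in KO against WT were 1 with no filter and 1 with the 4 libraries alone, where 1597 and 1861 of all genes were called, and those in the difference of differences were 3 with no filter. With the GC correction, alone or with the replicate block, 1 BMP gene was called in siTfap4 against siNeg. Leaving out each library in turn gave 610 to 857 genes, 1 to 3 BMP genes and 4 to 7 other pathway genes in KO against WT, 499 to 2987 genes, 1 to 2 BMP genes and 1 to 9 other pathway genes in siTfap4 against siNeg, 0 to 63 genes and 0 to 1 BMP genes in siNeg against KO, and 2 to 5 BMP genes in the difference of differences. The lone library of a group was then assumed to vary like the others.

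Sign changes among the BMP genes concerned values that were not called. For KO against WT, Smad5 was -0.0222 in DESeq2, -0.0004 with the filter of 1 CPM in 2 libraries, -0.0064 in limma-voom, -0.0060 with the replicate block, -0.0737 with the GC correction and -0.0811 with both. For siTfap4 against siNeg, Bmpr1a and Bmpr2 were -0.0188 and -0.0173 with the 4 libraries alone, -0.0531 and -0.0565 with library totals, and -0.0301 and -0.0307 with no filter, where Smad5 was -0.0174 with library totals and -0.0019 with no filter. Library totals shifted the median of all genes by -0.058 in that comparison. With the GC correction Bmp4 was 0.3030 and Id1 0.2728, and with the block as well 0.2952 and 0.2709. In the difference of differences Smad5 was -0.0232 with library totals and -0.0201 with no filter, and Bmpr1a and Bmpr2 were 0.2560 and 0.1195 with the GC correction and 0.2510 and 0.1232 with the block as well. Over the leave-outs, KO against WT ran from -0.1026 to 0.3967 for Bmpr2, -0.1623 to 0.1492 for Smad5, -0.4529 to 0.0636 for Bambi and -0.1714 to 1.4769 for Id1. For siTfap4 against siNeg the ranges were -0.3734 to 0.0304 (Bmp4), -0.1113 to 0.1371 (Bmpr1a), -0.2093 to 0.2717 (Bmpr2), -0.2951 to 0.0874 (Smad1), -0.0649 to 0.1469 (Smad5), -0.3475 to 0.0172 (Id1) and -0.0152 to 0.2386 (Id2). For siNeg against KO they were -0.1531 to 0.2507 (Bmp4), -0.3036 to 0.0078 (Smad5), -1.4819 to 0.1663 (Id1), -1.3952 to 0.4382 (Id2) and -1.1934 to 0.2788 (Id3), and for the difference of differences -0.1790 to 0.0695 (Bmpr1a), -0.3875 to 0.1470 (Bmpr2), -0.1117 to 0.1998 (Smad5) and -1.6383 to 0.0099 (Id1). The cause of these changes was not tested.

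Deviations of same-numbered libraries correlated at -0.061 (KO and WT) and 0.126 (siTfap4 and siNeg) over 15137 genes. With duplicates only, these correlations cannot show whether the replicate numbers pair the samples. With the number as a replicate block, 1337 genes were called in KO against WT and 2064 in siTfap4 against siNeg, with 2 and 3 of the BMP genes, and 4 in the difference of differences, where Id2 was not called (adjusted p = 0.0699). The block also ended the calls of Chrd (0.0542) and Bmp6 (0.0767) in KO against WT and of Stub1 (0.0580) and Tob2 (0.0554) in siTfap4 against siNeg, and with the GC correction as well that of Gata2 (0.0549). Depth limits Smad6 and Bambi most, and Bambi has 3 counts in siTfap4. In the simulated data, most 2-fold changes were missed with 2 libraries a group.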

Other observations

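The genes that set the KO duplicates apart as the Id genes did were looked up after their values were seen. Of 8636 genes with a mean of at least 10 CPM, the 3 with the highest ratio of KO 2 to KO 1 were Ccn1, which encodes a secreted matricellular protein (24.7 against 1.91 CPM, 12.9-fold), Phlda1 (45.4 against 9.63 CPM, 4.71-fold) and Ccn2, a relative of Ccn1 (204 against 50.8 CPM, 4.03-fold). Id2 followed as the fourth, Id1 stood at rank 7 and Id3 at rank 10, with Gm364, Arc, Amotl2 and E330020D12Rik between them at 2.98- to 3.27-fold. Other BMP-responsive genes went both ways. The same ratio was 1.98 for Hand1, 1.94 for Gata3, 1.5 for Id4 and 1.48 for Smad7. It was 0.795 for Msx2, 0.786 for Dusp9, 0.741 for Gata2 and 0.524 for Hey1. Some of these ratios rest on few counts in KO 1 and KO 2. The counts were 6 and 11 for Hand1, 5 and 9 for Gata3 and 19 and 14 for Msx2. For Gata2 they were 67 and 46, and for Hey1 35 and 17. With 1 library on each side these ratios have no replicate check.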
